A study of Rattus norvegicus with 30 samples.

Results

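The miR-29 family was followed in rat liver as 3 mature microRNAs, rno-miR-29a, rno-miR-29b and rno-miR-29c, written below without the species prefix. Members were taken by name from the probe names of the chips, without the star strands that come from the other arm of each hairpin. They were 3 of 388 rat names on the hepatectomy arrays and 3 of 680 on the sham arrays, and all 3 were among the 376 names shared by both. The liver came from male Wistar rats. Resection took 70% of the liver, and hepatectomy groups were sampled after 0, 2, 6, 12, 24 and 48 h and 5 d, while sham laparotomy groups, in which the abdomen was opened without resection, were sampled after 12, 24 and 48 h. There were 3 arrays per group, 10 groups and 30 arrays, and p values measure the spread between these arrays. Total RNA that kept the small fraction was read on a 1-colour febit biochip, where a bound miRNA primes an extension with biotin. The sources used here do not say how many animals stood behind a sample.

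miR-29 represses genes of the extracellular matrix, among them fibrillar collagens, and in the liver it is known for its low level in activated stellate cells, the cells that lay down scar. Like other miRNAs, it recognises targets mainly through its seed, bases 2 to 8 of the mature strand. After resection, hepatocytes of the remaining lobes divide and the matrix is remodelled as the organ regains its mass.

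The mature sequences are shown because the members differ at few positions, so that probes for them are closely alike. Capitals mark the seed. The sequences are those of RefSeq for the rat build GRCr8.
rno-miR-29a: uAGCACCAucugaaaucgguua
rno-miR-29b: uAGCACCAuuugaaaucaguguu
rno-miR-29c: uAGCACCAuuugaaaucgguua
All 3 carry the seed AGCACCA, which no other of the 694 mature rat entries of that table holds. They share their first 9 bases. Counting positions from 1 at the 5′ end and taking the first-named member's base first, miR-29a and miR-29c differ by C10U alone and match at 21 of 22 positions. Between miR-29b and miR-29c the differences are A18G, G21U and U22A over the 22 positions they share. The sources used here do not say how far the probes separate such near-identical members, so signals shared among members cannot be told apart.

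The members come from 2 pairs of hairpins. On chromosome 4, RefSeq places Mir29a at chr4:60617955-60618042 and Mir29b1 at chr4:60618334-60618414, both on the minus strand and 291 bases apart. On chromosome 13, Mir29b2 lies at chr13:109098831-109098911 and Mir29c at chr13:109099359-109099446, both on the plus strand and 447 bases apart. Both miR-29b hairpins give the same mature strand, so its probe reads their sum.

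The arrays differed in background. The median raw intensity was 544 to 608 on 8 hepatectomy arrays and 976 to 1328 on 13, including all 3 at 24 h, and it was 296 to 408 on sham arrays. How far bright names stood above the rest was measured as the signal span of an array, its 95th percentile of log2 signal less its median. It was 1.11 ± 0.51 at 24 h and 1.89 ± 0.44 at 0 h (SD, n = 3 each). For miR-122, the main hepatocyte miRNA, the median spot exceeded the array's median spot on all 21 hepatectomy and all 9 sham arrays. The ratio was 1.61 to 80.7 on hepatectomy arrays and 10.3 to 66.9 on sham arrays, in raw intensity that includes background. Lying above the array median does not by itself identify the tissue.

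miR-29a stood clearly above the array's median spot on sham arrays and by little on several hepatectomy arrays, while the other members were close to it. The median miR-29a spot exceeded the array's median spot on 21 of 21 hepatectomy arrays, by 1.36-fold at the median array, and on 9 of 9 sham arrays, by 5.07-fold. For miR-29b it did so on 19 of 21 and 6 of 9 arrays, with median ratios of 1.10 and 1.05. For miR-29c it did so on 20 of 21 and 8 of 9 arrays, with median ratios of 1.11 and 1.30. Both terms of these ratios are raw intensities that include background. Background was higher on hepatectomy arrays, which lowers their ratios, so the ratios do not compare signal between operations. At 24 h after hepatectomy the miR-29a ratios were 1.25, 1.05 and 1.10, with 14, 8 and 8 of 15 spots above the array median, a range that miR-29c also had. At 48 h the miR-29a ratios were 1.12, 1.16 and 1.56. Low ratios also stood on replicate 2 of 2 h (1.18), replicate 2 of 6 h (1.12) and replicate 3 of 5 d (1.15). Differences of miR-29b and miR-29c, and those of miR-29a that involve the 24 h or 48 h hepatectomy arrays, therefore rest wholly or in part on signals near background. Their size is uncertain. The 4 star strands lay at or below the array's median spot on nearly all arrays, the exceptions being 1 hepatectomy array for miR-29a* and 1 sham array for miR-29b-1*.

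The time course asked whether any member differed from the 0 h liver. No member passed the test at any of the 6 later times, nor over the 7 times together (adjusted p = 0.661 for miR-29a, 0.845 for miR-29b and 0.503 for miR-29c, limma's F test), where 2.32% of the 388 names passed. Of the 388 names, 0% passed after 2 h, 0.258% after 6 h, 2.84% after 12 h, 4.12% after 48 h and 0.258% after 5 d. By limma's unadjusted p under 0.05, 24 names differed after 2 h. Every member's mean was below its 0 h mean at all 6 times, but without normalization miR-29b lay above it after 6, 12, 24 and 48 h and miR-29c after 6 h, and with signal span (defined above) as a covariate miR-29a lay above it after 2, 6 and 12 h and 5 d. On the high-background arrays alone, miR-29c lay above it after 6 h and 5 d. These comparisons share the 0 h arrays. In bulk liver, fewer cells of a type and less RNA per cell cannot be told apart.

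miR-29a had normalized log2 levels of 9.18, 8.53 and 8.35 on the 24 h arrays, against 9.73, 9.47 and 10.30 on the 0 h arrays. In normalized level every 24 h array lay below every 0 h array, as for 12.4% of names. In background-subtracted intensity, the median of a name's spots minus the authors' constant for the array, the groups overlapped. It was 592, 192 and 216 at 24 h and 592, 416 and 2161 at 0 h. The log2 difference was -1.15 (SE 0.44, 95% interval -2.07 to -0.22), on 24 h signals near background, and its adjusted p of 0.0963 missed the threshold of 0.05, which 7.73% of names passed. Leaving out the 0 h array of replicate 3, the only 0 h array of low background, gave -0.90 (adjusted p = 0.330), and the high-background arrays alone gave -0.85 (adjusted p = 0.223). With signal span as a covariate the difference was -0.27 (adjusted p = 0.445).

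At the other times miR-29a stood nearer to its 0 h level. The 2 h arrays had 10.16, 8.54 and 10.12, the 6 h arrays 9.94, 8.44 and 9.76, and the 12 h arrays 9.92, 9.09 and 9.12. The 48 h arrays had 8.20, 9.32 and 9.36, all below the 0 h arrays, as for 8.76% of names. Their background-subtracted intensities of 344, 192 and 440 overlapped those of 0 h. The 5 d arrays had 9.57, 9.92 and 9.09. The 2 h, 6 h, 12 h and 5 d arrays overlapped those of 0 h. The differences from 0 h were -0.23 after 2 h, -0.45 after 6 h, -0.46 after 12 h, -0.87 after 48 h and -0.31 after 5 d. Replicates 1 and 2 of 48 h, like the 24 h arrays, had signals near background, with ratios to the array's median spot of 1.12 and 1.16. Replicate 3 of 48 h had 1.56, and replicates 1 and 2 of 0 h had 1.48 and 1.33. The 5 d level exceeded that of 24 h by 0.84 (SE 0.44, adjusted p = 0.589, where 0.515% of names passed), and the arrays of these times overlapped.

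**Figure D1:**
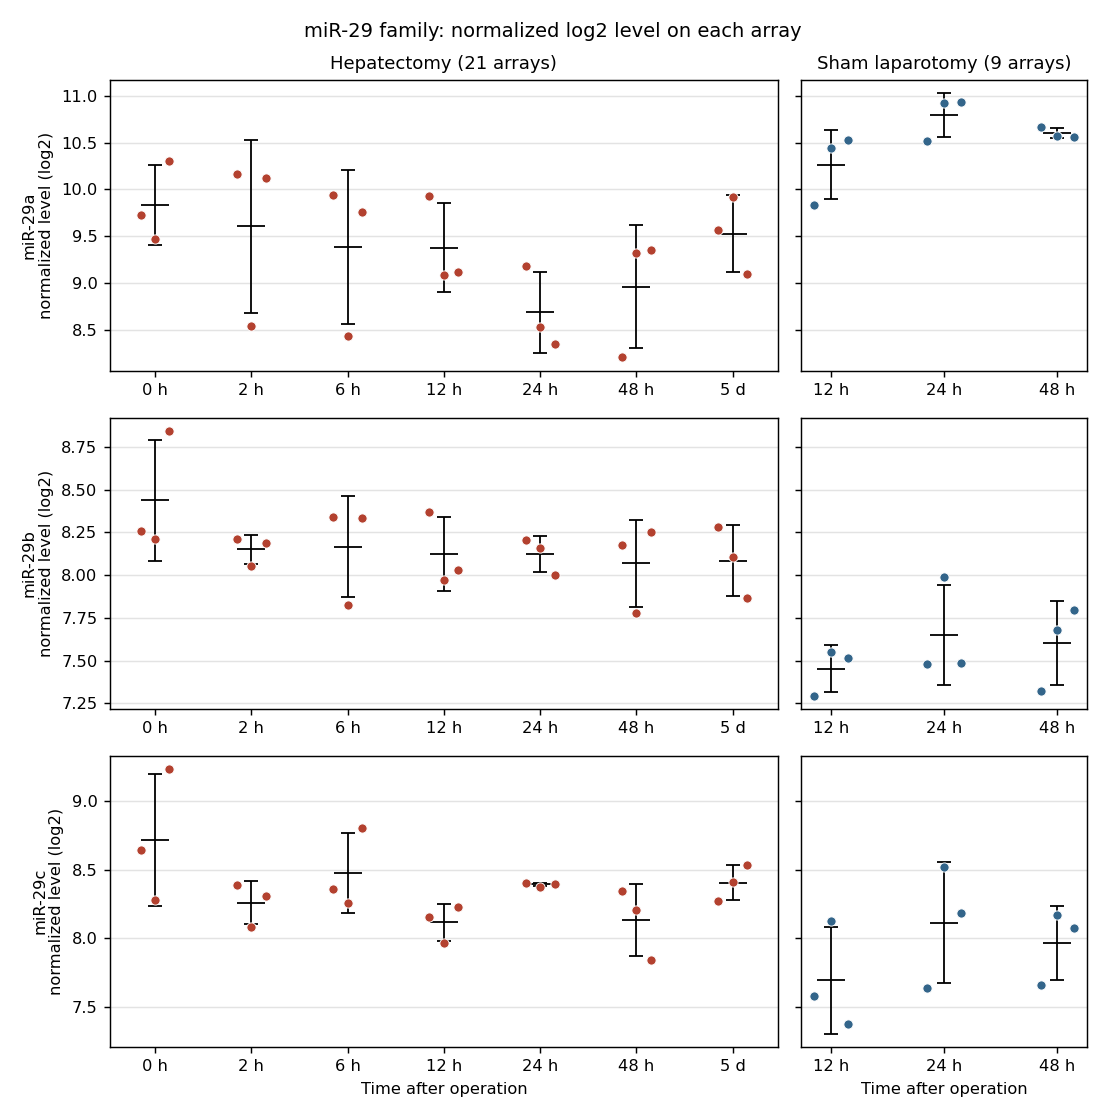
Normalized log2 level of each miR-29 member (rows) on every array, by time after hepatectomy (left, 21 arrays) and sham laparotomy (right, 9 arrays); points are arrays, and the black bar with whiskers is the mean ± SD of 3. The tables were normalized separately, so levels are not to be set across the columns. miR-29a is lowest at 24 h after hepatectomy, with a mean of 8.69.

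miR-29a also varied more between replicates than most names. Its pooled within-group SD was 0.62, the rank 6 from the highest of 388 names, against 0.23 for miR-29b, 0.25 for miR-29c and a median of 0.24 over all names. In the order of its means, 0 h came first, followed by 2 h, 5 d, 6 h, 12 h, 48 h and 24 h, and each neighbouring pair overlapped.

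miR-29c had levels of 8.16, 7.97 and 8.23 at 12 h, against 8.64, 8.28 and 9.23 at 0 h. In normalized level the 12 h arrays all lay below those of 0 h, as for 9.79% of names. Background-subtracted intensities overlapped, with 200, 328 and 360 at 12 h and 192, 120 and 648 at 0 h. The log2 difference in normalized level was -0.60 (SE 0.20), with an adjusted p of 0.0991. At 48 h it was -0.58 (adjusted p = 0.120), and the arrays overlapped. Both differences depended on 0 h arrays. Leaving out replicate 2 of 0 h gave -0.82 at 12 h (adjusted p = 0.0308) and -0.80 at 48 h (adjusted p = 0.0226), and leaving out replicate 3 of 0 h gave -0.34 (adjusted p = 0.492) and -0.33 (adjusted p = 0.487). The other differences of miR-29c from 0 h were -0.46 after 2 h, -0.24 after 6 h, -0.32 after 24 h and -0.31 after 5 d.

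miR-29b had levels of 8.21, 8.16 and 8.00 at 24 h, against 8.26, 8.21 and 8.84 at 0 h. In normalized level no 24 h array reached the lowest 0 h array, as for 12.4% of names, though the nearest arrays were almost level. Background-subtracted intensities overlapped, with 416, 232 and 176 at 24 h and 144, 112 and 320 at 0 h. The log2 difference in normalized level was -0.31 (SE 0.19, adjusted p = 0.300), and without replicate 3 of 0 h it was -0.11 (adjusted p = 0.858). Its differences at the 6 times ran from -0.37 at 48 h to -0.27 at 6 h. Replicate 3 of 0 h was the highest 0 h array for all 3 members and had the widest signal span of the hepatectomy arrays, 2.34.

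**Figure D2:**
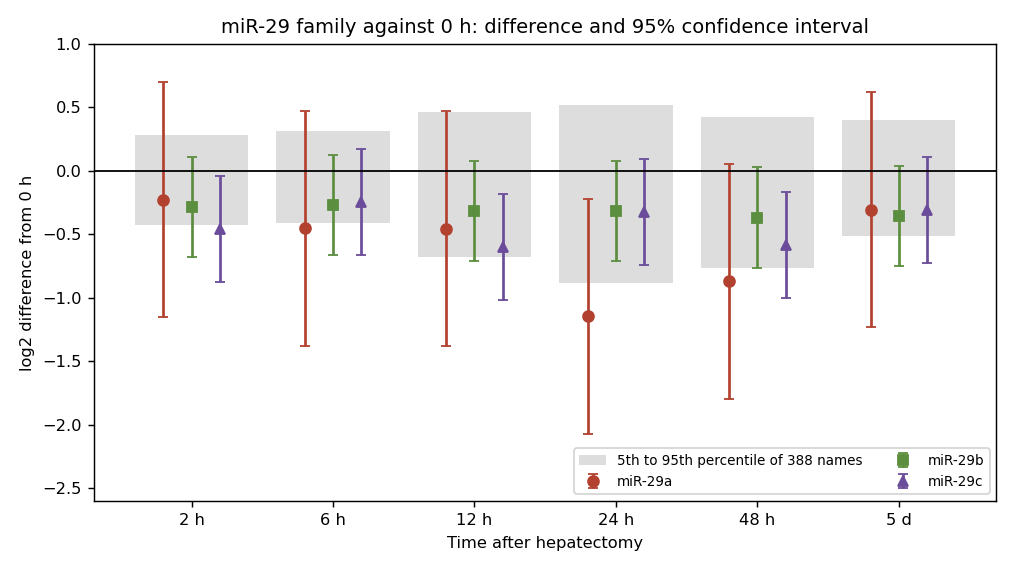
Log2 difference of each member from 0 h at 6 times after hepatectomy (points) with its 95% confidence interval (bars); grey blocks span the 5th to 95th percentile of all 388 names. At 24 h miR-29a, at -1.15, lies below the grey block, while miR-29b and miR-29c, at -0.31 and -0.32, lie inside it.

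Sham laparotomy was the control for surgery without resection. No member passed the test between sham times, nor did any of 680 names (0% in each comparison, limma), where 61 names at 24 h against 12 h, 45 at 48 h against 12 h and 16 at 48 h against 24 h had an unadjusted p under 0.05. miR-29a had 10.52, 10.92 and 10.94 at 24 h, against 9.84, 10.44 and 10.52 at 12 h. The groups overlapped narrowly, and the difference was 0.53 (SE 0.17, unadjusted p = 0.00980, adjusted p = 0.310, limma). At 48 h against 12 h it was 0.34 (adjusted p = 0.731), and all normalized levels at 48 h lay above those of 12 h, as for 5.44% of names. miR-29b differed by 0.20 and 0.15 and miR-29c by 0.42 and 0.27 at the same times, 24 h and then 48 h, each against 12 h.

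Hepatectomy was compared with sham at matched times to set resection against surgery alone. Of the members, miR-29a passed at 24 h, where it was lower after hepatectomy, and none passed at 12 or 48 h. Chip layouts differed, with 15 spots per name in the hepatectomy table and 22 in the sham table, so operation and layout cannot be told apart. In background-subtracted intensity, the median of a name's spots minus the authors' constant for the array, miR-29a had 592, 192 and 216 at 24 h after hepatectomy, against 1252, 4773 and 2597 after sham. No hepatectomy array reached the lowest sham array. At 12 h it had 800, 640 and 552 after hepatectomy, against 512, 796 and 532 after sham, and these overlapped. At 48 h it had 344, 192 and 440 after hepatectomy, against 716, 2221 and 1613 after sham, so that no hepatectomy array reached the lowest sham array there either. These intensities were not normalized between layouts. How many of all names separated in this way was not counted, so the separation is not read as particular to miR-29a.

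On the joint scale a name's value depends on its rank on the array, not directly on its intensity. The highest miR-29a value there was 10.07 both at 12 h after hepatectomy and at 24 h after sham. On this scale, the miR-29a difference at 24 h was -1.43 (SE 0.33, 95% interval -2.10 to -0.76), with an adjusted p of 0.00394 (limma). The hepatectomy signals behind it were near background, so no fold is given. At 24 h, 11.4% of 376 names passed, and 17.8% had every hepatectomy array below every sham array. It was 0.016 at 12 h (adjusted p = 0.991, where 1.06% of names passed) and -0.74 at 48 h (adjusted p = 0.280, where 2.39% passed), where the arrays overlapped on this scale. Leaving out each 24 h array in turn gave -1.57 to -1.35, with adjusted p values of 0.00719 to 0.0208. Signal span moved with this result: over shared names it was 1.12 ± 0.51 after hepatectomy and 2.89 ± 0.65 after sham at 24 h (SD, n = 3 each). With span as a covariate, the difference was -0.76 (SE 0.41, adjusted p = 0.316) and no longer passed. At 48 h, leaving out hepatectomy replicate 2 gave -1.18 (adjusted p = 0.0302), and leaving out replicate 1 gave -0.18 (adjusted p = 0.874).

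**Figure D3:**
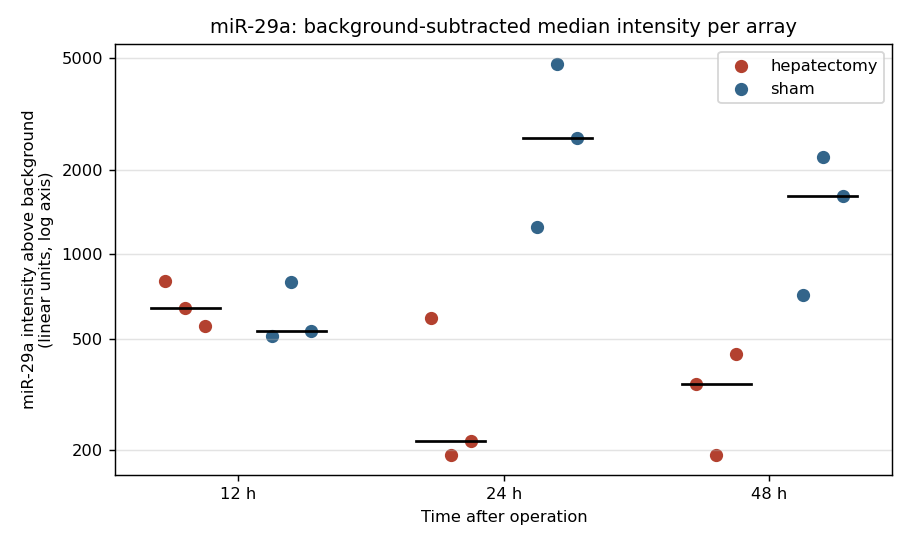
Background-subtracted median intensity of miR-29a (linear units on a log axis) per array at 12, 24 and 48 h, with hepatectomy left of sham; points are arrays and black lines the group medians. At 24 h the hepatectomy arrays sit at 192 to 592 and the sham arrays at 1252 to 4773, and at 48 h at 192 to 440 and 716 to 2221, while the 12 h arrays overlap. The share of all names that separate in this way was not counted.

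miR-29b and miR-29c did not pass between operations at any time. Their differences were 0.13 and -0.098 at 12 h, 0.045 and 0.033 at 24 h, and 0.049 and -0.031 at 48 h, miR-29b first. The 95% intervals at 24 h were -0.30 to 0.39 for miR-29b and -0.44 to 0.51 for miR-29c (3 arrays a group), so differences up to these bounds are not excluded. Whether miR-29a differs from the other members in its response was not tested.

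The change from 12 h to 24 h was compared between operations, since a constant offset of a name between layouts cancels there. Signal span does not cancel there, because it moved differently in the operations. Its mean over shared names went from 1.40 to 1.12 after hepatectomy and from 1.60 to 2.89 after sham. The part of span in this change was not tested beyond the covariate. For miR-29a the change after hepatectomy minus that after sham was -1.45 (SE 0.46). Its unadjusted p of 0.00402 was the smallest of 376 names and its adjusted p was 0.753, with 0% of names passing and 18 names at an unadjusted p under 0.05. For miR-29b this value was -0.090 and for miR-29c 0.13.

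**Figure D4:**
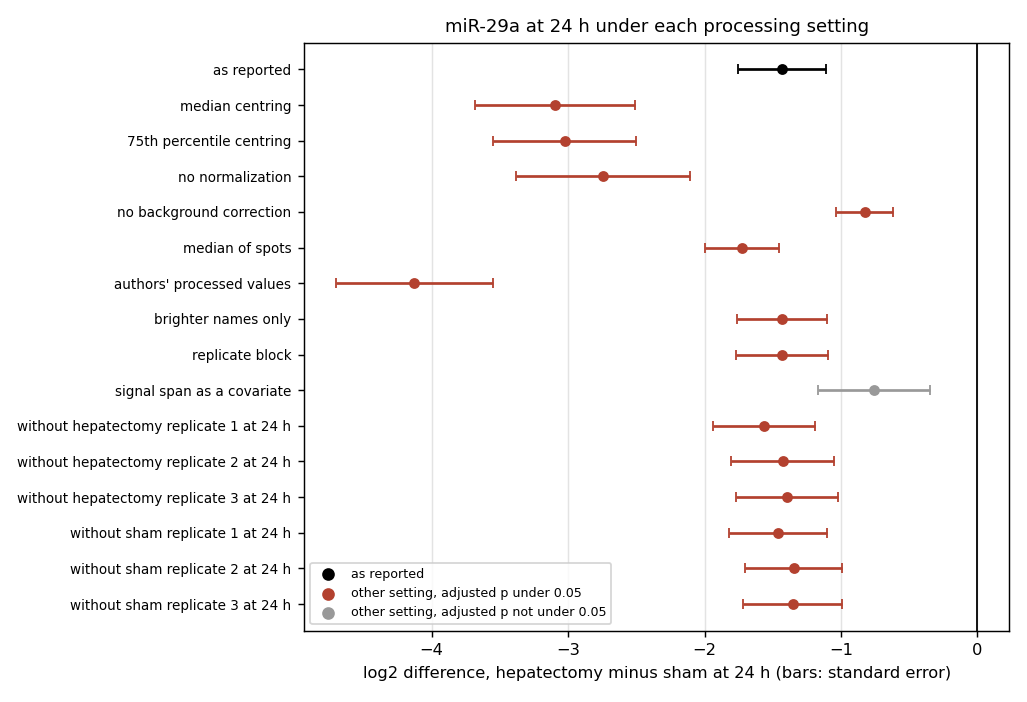
Log2 difference of miR-29a at 24 h, hepatectomy minus sham (points, with standard errors), as reported and in each other setting. All settings shown lie below 0, from -4.13 to -0.76, and the grey point, with signal span as a covariate, is the one whose adjusted p is not under 0.05.

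Levels of miR-29a followed signal span across the 21 hepatectomy arrays. Pearson's r was 0.87 and Spearman's rho 0.85 (permutation p = 2e-05 for both, the smallest that the permutations can give, adjusted p = 6e-05 for r and 0.00012 for rho over 6 relations). Without the 2 arrays farthest from the median span, r was 0.84. Within the 13 high-background arrays r was 0.82, and within the 8 low-background arrays 0.57. For miR-29b the pooled r was 0.79 and rho 0.77 (permutation p = 2e-05 and 0.0001), with 0.73 and 0.69 within the high- and low-background arrays. For miR-29c r was 0.49 and rho 0.46 (permutation p = 0.0214 and 0.0389), and r was 0.28 without the 2 farthest arrays, but 0.51 and 0.91 within the high- and low-background arrays. On the 9 sham arrays r was 0.47 for miR-29a, 0.75 for miR-29b and 0.73 for miR-29c (permutation p = 0.191, 0.0219 and 0.0318, adjusted p = 0.191, 0.0329 and 0.0382), and 0.27, 0.70 and 0.91 without the 2 farthest. The order of the members by r thus differed between these sets of arrays. Span was computed over all names of an array, the members among them, so it is not fully independent of their levels. The permutations shuffled arrays across time groups and background classes, so these p values do not allow for that structure. The part of span in the miR-29 differences was not tested beyond the covariate.

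**Figure D5:**
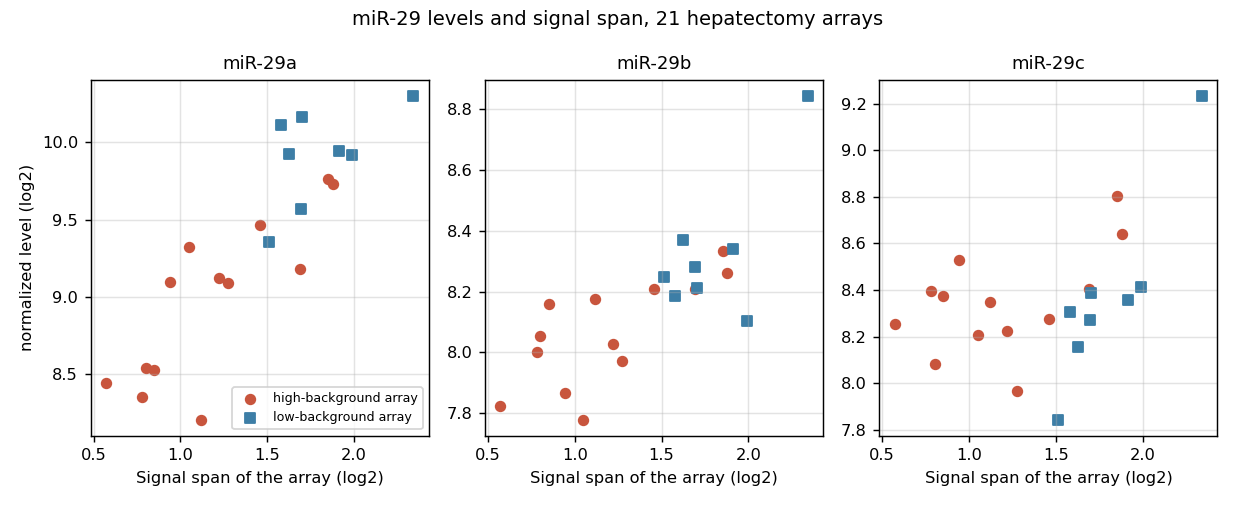
Normalized log2 level of each member against the signal span of the array (log2), for 21 hepatectomy arrays, 13 of high background (circles) and 8 of low background (squares). miR-29a is higher on arrays of wider span (r = 0.87). For miR-29c the pooled r is 0.49, and it is 0.91 among the low-background arrays, where miR-29a has 0.57.

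Among themselves, miR-29a and miR-29b were correlated over the 21 hepatectomy arrays, with r = 0.59 and rho = 0.71 (permutation p = 0.00246 and 0.00034, adjusted p = 0.0148 for r over 6 relations). Without the 2 farthest arrays r was 0.65, but within the high- and low-background arrays it was 0.33 and 0.40. For miR-29b and miR-29c r was 0.57 and rho 0.28 (permutation p = 0.0215 and 0.224), and r was 0.15 without the 2 farthest arrays, but 0.53 and 0.77 within the high- and low-background arrays. miR-29a and miR-29c, the members that differ by 1 base, had r = 0.36 and rho = 0.29 (permutation p = 0.0943 and 0.197), with r = 0.42 and 0.76 within those classes. On the 9 sham arrays r was 0.53 for miR-29a with miR-29b, 0.57 for miR-29a with miR-29c and 0.76 for miR-29b with miR-29c (permutation p = 0.106, 0.0971 and 0.0173, adjusted p = 0.106, 0.106 and 0.0430). Over the hepatectomy arrays, miR-29a and miR-29b also both followed signal span (r = 0.87 and 0.79). The part of span in these correlations was not tested. About the hepatectomy time means, r was 0.59 for miR-29a with miR-29b, 0.32 for miR-29a with miR-29c and 0.46 for miR-29b with miR-29c. The permutations shuffled arrays across time groups and background classes, so their p values do not allow for that structure.

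The names most like each member were taken by Pearson's r over the same 21 arrays, among 167 names above the median level. For miR-29a they were miR-101b (r = 0.92), miR-23a (0.90) and miR-30c (0.89), where the median name had 0.18. At 24 h between operations, the difference was -1.43 for miR-23a (adjusted p = 0.000157) and -0.95 for miR-30c (adjusted p = 0.0172), and 0.27 for miR-101b (adjusted p = 0.484). For miR-29b they were miR-378 (0.77), miR-101b (0.74) and miR-17-5p (0.73). For miR-29c they were miR-30a (0.80), miR-27a (0.77) and let-7f (0.76). These values share the arrays' span and background.

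The 4 star strands, which share hairpins with the members, passed in no comparison. At 24 h their differences from 0 h ran from -0.061 for miR-29a* to 0.10 for miR-29b-1*.

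Among 20 miRNAs linked to fibrosis and stellate cells, 0 rose and 2 fell at 24 h against 0 h, where 11 of all 388 names rose and 19 fell (7.73% together). The list median was -0.31, and 0.066 over all names. miR-145, abundant in smooth muscle, fell by 1.12 (adjusted p = 0.0150), and miR-146a, a brake on innate immune signalling, fell by 0.68 (adjusted p = 0.0390). Between hepatectomy and sham at 24 h, 1 of the 20 rose and 5 fell, where 17 of all 376 names rose and 26 fell (11.4% together). The list median was -0.19, and 0.0064 over all names. miR-27b fell by 1.48 (adjusted p = 0.00228) and miR-335 rose by 0.91 (adjusted p = 0.00500), while miR-145, miR-146a, miR-199a-3p and miR-27a fell by 0.50 to 0.89.

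Markers of cell types that a liver sample can hold were read beside miR-29a at 24 h. With 7.73% of all names passing against 0 h and 11.4% between operations, single calls in lists this short are close to what all names gave. Against 0 h, the endothelial miR-126 fell by 1.52 (adjusted p = 0.0113), 1 of 5 mesenchymal markers fell (miR-145), and 1 of 4 leukocyte markers rose (miR-142-5p, by 0.49, adjusted p = 0.0420). The 3 hepatocyte markers did not pass, although miR-122 differed by -1.41 (adjusted p = 0.105). None of 2 erythroid, 5 biliary and 4 muscle markers passed. Summed marker levels (log2) were 11.12 to 13.63 at 24 h and 13.41 to 13.85 at 0 h for hepatocytes, and 10.31 to 11.09 at 24 h and 10.71 to 11.34 at 0 h for mesenchymal cells. Between operations at 24 h, 2 of 5 mesenchymal markers fell (miR-145 and miR-199a-3p), 1 of 5 biliary markers rose (miR-141, by 0.57, adjusted p = 0.0498), and no endothelial, leukocyte, erythroid or muscle marker passed. The joint scale gives names of equal rank the same value on every array, so it cannot show a change in names that stay at the top, and miR-122 averaged 12.94 after hepatectomy and 12.94 after sham. The hepatocyte markers are therefore not read between operations. The part of these cell types in the miR-29a difference was not tested.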

How the data were processed

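The scanner tables deposited by the authors hold linear raw intensity for every spot, and a companion table gives the median intensity per name minus 1 constant per array. The authors also deposited processed log2 values for 323 names, used as an alternative. The sources used here do not give the image software, the probe sequences or the build behind them. Raw intensities were corrected with normexp (offset 50), log2 transformed, quantile normalized and averaged over the spots of a name with limma 3.58.1 in R 4.3.3. In the joint fit of both operations, spots were averaged first. Models (lmFit, eBayes) covered all groups of a table, with two-sided tests and Benjamini-Hochberg adjustment over all names. Replicate letters of 4 columns (2 h and 48 h) were exchanged between the raw and processed tables, and numbers follow the raw tables. Correlations used Python 3.11.15 and scipy 1.17.1. The fitting code was tested on simulated data. Members and lists were chosen with earlier results of these data known. Besides the 3 members, names in the text are the star strands, the marker and fibrosis lists (values for at most 4 of a list and those that passed), and the 3 names most correlated with each member among those above the median level. Other normalizations, spot summaries, filters, covariates and each array left out were tried.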

Additional observations from a re-analysis of the deposited data

How the results depend on the processing

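The 1 member difference that passed the test, miR-29a at 24 h between hepatectomy and sham, kept its direction and its side of the threshold in 8 of 9 other settings. With signal span as a covariate, an alternative chosen after seeing the data, it was -0.76 with an adjusted p of 0.316 (limma), and its adjusted p over all 9 settings ran up to that value. The replicate block left it at -1.43 with an adjusted p of 0.00676. For same-numbered arrays, correlations of their deviations from group means ran from -0.76 to 0.78 over 63 hepatectomy pairs, 32 of them over 0.1. Over 9 sham pairs they ran from -0.19 to 0.37, with 5 over 0.1. Differently numbered arrays were not compared, so these values cannot decide whether the numbers mark pairs. The numbers were not used as pairs. The block changed no call of a member.

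Passing only elsewhere, miR-29a at 24 h against 0 h was -1.43 with the median of spots (adjusted p = 0.0354) and -2.50 with the authors' processed values (adjusted p = 0.00734). For miR-29a at 48 h between operations, the passing values were -2.16 with median centring (adjusted p = 0.0333), -2.21 with 75th percentile centring (adjusted p = 0.00751) and -2.90 with the processed values (adjusted p = 0.000806). Without normalization, miR-29b at 12 h between operations passed at 1.02 (adjusted p = 0.0388). The causes of these changes were not tested.

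Listed next are the counts of names passing the test that differed from the reported count by a factor of over 1.5. With median centring, names passing the test numbered 6 after 12 h, 19 after 24 h, 0 after 5 d, 0 at 5 d against 24 h and 4 over all times following hepatectomy. They numbered 0 at 12 h and 18 at 48 h between operations. Under 75th percentile centring, names passing the test numbered 1 after 2 h, 6 after 12 h, 15 after 24 h, 0 after 5 d, 0 at 5 d against 24 h and 2 over all times following hepatectomy. They numbered 2 at 12 h, 65 at 24 h and 33 at 48 h between operations. Without normalization, names passing the test numbered 0 after 6 h, 0 after 12 h, 0 after 24 h, 0 after 48 h, 0 after 5 d, 0 at 5 d against 24 h and 0 over all times following hepatectomy. They numbered 148 at 12 h, 16 at 24 h and 0 at 48 h between operations. Without background correction, names passing the test numbered 1 after 2 h and 7 after 12 h following hepatectomy. They numbered 2 at 12 h between operations. Using the median of spots, names passing the test numbered 2 at 12 h and 5 at 48 h between operations. On the authors' processed values, names passing the test numbered 0 after 6 h, 17 after 12 h, 10 after 48 h and 1 at 5 d against 24 h following hepatectomy. They numbered 7 at 12 h and 25 at 48 h between operations. Over the brighter names alone, names passing the test numbered 1 after 2 h and 2 after 5 d following hepatectomy. In the fit with a replicate block, names passing the test numbered 3 at 24 h against 12 h, 4 at 48 h against 12 h and 2 over the sham times among sham arrays. With signal span as a covariate, names passing the test numbered 4 after 2 h, 13 after 6 h, 62 after 12 h, 103 after 24 h, 38 after 48 h, 42 after 5 d and 38 over all times following hepatectomy. They numbered 10 at 24 h and 0 at 48 h between operations. With background class as a covariate, names passing the test numbered 1 after 2 h, 27 after 12 h, 46 after 24 h, 27 after 48 h and 10 after 5 d following hepatectomy. On high-background arrays alone, names passing the test numbered 0 after 6 h, 18 after 24 h, 4 after 48 h, 3 after 5 d, 0 at 5 d against 24 h and 3 over all times following hepatectomy.

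Of 903 values of the members under other settings, 94 had the opposite sign to the reported value, and all 94 missed the threshold, as their reported values did. With median centring, the sign turned following hepatectomy for miR-29c at 5 d against 24 h (-0.048). It turned between operations for miR-29a at 12 h (-0.69), miR-29c at 12 h (0.076), miR-29c at 24 h (-0.28) and miR-29b at 24 h (-0.039). It turned for the change between operations for miR-29c from 12 h to 24 h (-0.35) and miR-29c from 12 h to 48 h (-0.26). Under 75th percentile centring, the sign turned between operations for miR-29a at 12 h (-0.87) and miR-29c at 24 h (-0.21). It turned for the change between operations for miR-29c from 12 h to 24 h (-0.10) and miR-29c from 12 h to 48 h (-0.13). Without normalization, the sign turned following hepatectomy for miR-29c after 6 h (0.014), miR-29b after 6 h (0.078), miR-29b after 12 h (0.16), miR-29b after 24 h (0.0079), miR-29b after 48 h (0.11) and miR-29c at 5 d against 24 h (-0.084). It turned between operations for miR-29c at 12 h (0.80) and miR-29c at 48 h (0.35). It turned for the change between operations for miR-29c from 12 h to 24 h (-0.72) and miR-29c from 12 h to 48 h (-0.45). Without background correction, the sign turned following hepatectomy for miR-29c at 5 d against 24 h (-0.016). It turned between operations for miR-29a at 12 h (-0.017) and miR-29c at 24 h (-0.0033). Using the median of spots, the sign turned following hepatectomy for miR-29c at 5 d against 24 h (-0.12). It turned between operations for miR-29a at 12 h (-0.16) and miR-29c at 12 h (0.17). It turned for the change between operations for miR-29c from 12 h to 24 h (-0.15), miR-29c from 12 h to 48 h (-0.26) and miR-29b from 12 h to 48 h (0.17). On the authors' processed values, the sign turned following hepatectomy for miR-29c at 5 d against 24 h (-0.33). It turned among sham arrays for miR-29b at 48 h against 12 h (-0.018). It turned between operations for miR-29a at 12 h (-1.28), miR-29c at 12 h (0.64) and miR-29c at 24 h (-0.30). It turned for the change between operations for miR-29c from 12 h to 24 h (-0.94), miR-29b from 12 h to 48 h (0.33) and miR-29c from 12 h to 48 h (-1.11). With signal span as a covariate, the sign turned following hepatectomy for miR-29a after 2 h (0.37), miR-29a after 6 h (0.048), miR-29a after 12 h (0.13), miR-29a after 5 d (0.087) and miR-29c at 5 d against 24 h (-0.071). It turned among sham arrays for miR-29b at 24 h against 12 h (-0.14), miR-29c at 24 h against 12 h (-0.032), miR-29b at 48 h against 12 h (-0.069), miR-29c at 48 h against 12 h (-0.015), miR-29b at 48 h against 24 h (0.073) and miR-29c at 48 h against 24 h (0.017). It turned for the change between operations for miR-29b from 12 h to 24 h (0.33) and miR-29b from 12 h to 48 h (0.19). With background class as a covariate, the sign turned following hepatectomy for miR-29c at 5 d against 24 h (-0.020). On high-background arrays alone, the sign turned following hepatectomy for miR-29c after 6 h (0.062) and miR-29c after 5 d (0.043).

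With each array left out in turn, the counts and differences that moved had these ranges. Names called following hepatectomy ranged from 0 to 4 after 2 h, from 0 to 4 after 6 h, from 1 to 17 after 12 h, from 12 to 29 after 24 h, from 0 to 19 after 48 h, from 0 to 2 after 5 d, from 1 to 2 at 5 d against 24 h and from 3 to 14 over all times. Names called among sham arrays ranged from 0 to 1 at 24 h against 12 h. Names called between operations ranged from 1 to 6 at 12 h, from 21 to 40 at 24 h and from 0 to 25 at 48 h. Names called for the change between operations ranged from 0 to 1 from 12 h to 24 h. Member differences following hepatectomy ranged from -0.50 to 0.31 for miR-29a after 2 h, from -0.72 to 0.019 for miR-29a after 6 h, from -0.14 to 0.069 for miR-29b at 5 d against 24 h, from -0.46 to 0.012 for miR-29c after 6 h and from -0.050 to 0.080 for miR-29c at 5 d against 24 h. Member differences among sham arrays ranged from -0.15 to 0.11 for miR-29b at 48 h against 24 h and from -0.38 to 0.050 for miR-29c at 48 h against 24 h. Member differences between operations ranged from -0.11 to 0.23 for miR-29a at 12 h, from -0.019 to 0.15 for miR-29b at 24 h, from -0.12 to 0.22 for miR-29b at 48 h, from -0.33 to 0.20 for miR-29c at 12 h, from -0.13 to 0.14 for miR-29c at 24 h and from -0.14 to 0.17 for miR-29c at 48 h. Member differences for the change between operations ranged from -0.18 to 0.022 for miR-29b from 12 h to 24 h, from -0.26 to 0.086 for miR-29b from 12 h to 48 h, from -0.17 to 0.36 for miR-29c from 12 h to 24 h and from -0.24 to 0.30 for miR-29c from 12 h to 48 h.

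The number of arrays and the separate chip layouts of the operations limit these results. So does the low signal of miR-29b and miR-29c, and of miR-29a at 24 h and on replicates 1 and 2 of 48 h after hepatectomy. The cause of each move was not tested.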
